A study of Homo sapiens with 12 samples.

Results

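The 10 genes described here encode enzymes that the transcription factor NRF2 is known to induce under oxidative and electrophilic stress. They were taken by symbol from the deposited table as AKR1B10, AKR1C1, AKR1C2, AKR1C3, NQO1, GCLC, GCLM, TXNRD1, SRXN1 and HMOX1, and are 10 of its 23346 genes. All 10 were among the 16236 genes with a mean of at least 0.1 RPKM (reads scaled to the length of the gene in kilobases and to the size of the library) over the 12 samples, which were the genes tested. In SW1990, GCTM-5 positive cells held less RNA of 7 of the 10 genes than negative cells, with the 4 aldo-keto reductases the furthest apart. In CFPAC-1, positive cells held more RNA of 5 of the 10, with GCLM the furthest apart, and no difference in the aldo-keto reductases passed the test.

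NRF2, the product of NFE2L2, is held in the cytoplasm and passed to degradation by KEAP1. Oxidants and electrophiles modify cysteines of KEAP1, after which NRF2 accumulates, pairs with a small MAF protein in the nucleus and binds antioxidant response elements, where BACH1 competes as a repressor. Its targets make glutathione, reduce thioredoxin, quinones and carbonyls, and break down heme, and NRF2 activity in pancreatic adenocarcinoma is known from work on mouse and human tumours.

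SW1990 and CFPAC-1 are established human pancreatic adenocarcinoma lines. Cells of each line were stained with GCTM-5, a monoclonal antibody to a glycoconjugate on the cell surface, and sorted into strongly positive and negative fractions, with cells of intermediate staining left out. Each of the 4 groups (SW1990 negative, SW1990 positive, CFPAC-1 negative, CFPAC-1 positive) had 3 samples, and the labels name no added stressor, drug or genetic change in any of them. The methods describe triplicate sorts but do not say whether separate cultures were sorted, so the p-values measure only the spread between these samples. Each line stands for itself, and a difference between the lines cannot be told apart from any difference in their culture, sort or sequencing. The RPKM values imply library totals of 9969697 to 26159330 reads, with positive CFPAC-1 replicate 3 the smallest. Within the positive CFPAC-1 group that library had the highest RPKM of the 4 aldo-keto reductases, NQO1 and SRXN1, and the lowest of GCLC, GCLM, TXNRD1 and HMOX1, and the part of its depth in this was not tested.

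Groups were compared with limma on log2(RPKM + 0.1), and a gene was called higher or lower at an adjusted p-value under 0.05 over all genes tested. Fold changes are on that scale, which understates the change of genes with low RPKM. In SW1990, 7 of the 10 genes were lower in positive cells and 0 were higher, where 16.9% of all genes tested were lower and 11.3% higher. In CFPAC-1, 5 were higher and 0 lower, where 22.3% of all genes tested were higher and 14.2% lower. The 5 became 3 with median centring, with quantile normalisation, without negative CFPAC-1 replicate 3 and without positive CFPAC-1 replicate 1. The median log2 fold change of the 10 genes was -1.38 in SW1990 and 0.29 in CFPAC-1, beside -0.04 and 0.05 over all genes tested. By a rule modelled on that of the study, more than 2-fold at an unadjusted p-value under 0.01, 5 of the 10 differed in SW1990 (12.1% of all genes tested) and 1, GCLM, in CFPAC-1 (9.78%). The 3 positive and 3 negative samples did not overlap for 8 of the 10 genes in SW1990 (43.3% of all genes tested) and for 6 of the 10 in CFPAC-1 (48.5%), so the CFPAC-1 share was near the background. The plot of RPKM by sample shows all values.

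**Figure D1:**
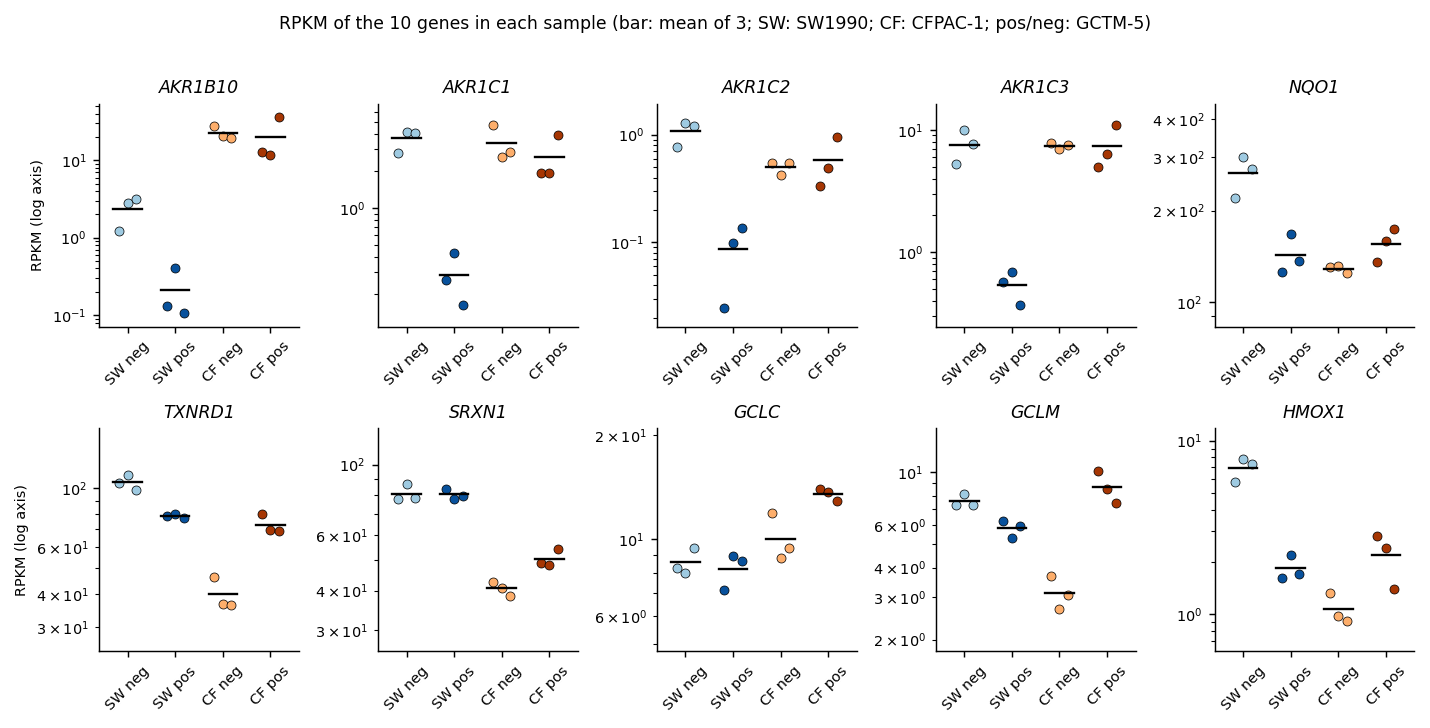
RPKM of the 10 genes in each of the 12 samples, on log axes, with the samples of a group in replicate order and a bar at their mean (SW is SW1990, CF is CFPAC-1, pos and neg are GCTM-5 positive and negative cells, 3 samples each). The 4 aldo-keto reductases are lowest in positive SW1990 cells, whereas GCLM and TXNRD1 are lowest in negative CFPAC-1 cells.

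AKR1B10 encodes an aldo-keto reductase that reduces retinal and reactive aldehydes, and lies at chr7:134212319-134226164 on the plus strand of GRCh37. In SW1990, its RPKM was 1.22, 2.77 and 3.15 in the negative and 0.129, 0.406 and 0.106 in the positive samples. Every positive sample lay below every negative one, and the positive values rested on 3 to 11 reads. The fitted difference was an 8.02-fold lower level in positive cells (log2 fold change -3.00, SE 0.47, adjusted p = 0.00048). In CFPAC-1, where the gene was more abundant, its RPKM was 27.8, 20.4 and 19.5 in the negative and 13.0, 11.6 and 36.1 in the positive samples. The positive samples surrounded the negative ones, and the log2 difference of -0.34 (SE 0.47) did not pass the test (adjusted p = 0.61). With single libraries left out this difference ran from -0.85 to -0.04 and was not called. The change in SW1990 was lower than that in CFPAC-1 by 2.66 on the log2 scale (SE 0.67, adjusted p = 0.0117), a call that was lost with a pseudocount of 1 RPKM in place of 0.1, at an interaction of -1.12 and an adjusted p-value of 0.119. The related AKR1B15, whose coding sequence was 86.1% identical to that of AKR1B10, was listed at 0 in 10 of the 12 samples and had 1 read in each of the others.

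AKR1C1, AKR1C2 and AKR1C3 stand next to each other on chromosome 10 and encode 20-alpha, 3-alpha and 17-beta hydroxysteroid dehydrogenases that also reduce prostaglandins, quinones and lipid aldehydes. In GRCh37 they lie at chr10:5005445-5025475 (plus strand), chr10:5029967-5060223 (minus strand) and chr10:5077546-5149878 (plus strand). The coding sequences of AKR1C1 and AKR1C2 were 98.0% identical, and 18.9% of the 100-base windows of the first occurred unchanged in the second, so reads of the study's length cannot always be assigned to one of them. AKR1C3 was 91.4% identical to AKR1C1 and 91.0% to AKR1C2. How the authors counted reads that match several genes is not given in the sources used here, and the sum of the RPKM was therefore fitted as well.

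The same closeness is seen at the start sites. The RefSeq promoter windows of AKR1C1 (GRCh38.p14, chr10:4963165-4963464, plus strand) and AKR1C2 (GRCh38.p14, chr10:5003808-5004107, minus strand), which run from 250 bases before to 50 bases after the start, shared an unbroken run of 245 bases. They are printed because both genes were lower in positive SW1990 cells, with no letters in capitals since the search described below found no match in them.
AKR1C1: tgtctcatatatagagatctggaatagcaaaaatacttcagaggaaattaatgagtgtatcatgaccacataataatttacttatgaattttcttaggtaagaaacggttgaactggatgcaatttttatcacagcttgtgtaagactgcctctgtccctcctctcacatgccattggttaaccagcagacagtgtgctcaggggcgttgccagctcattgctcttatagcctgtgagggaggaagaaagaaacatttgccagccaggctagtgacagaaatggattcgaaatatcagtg
AKR1C2: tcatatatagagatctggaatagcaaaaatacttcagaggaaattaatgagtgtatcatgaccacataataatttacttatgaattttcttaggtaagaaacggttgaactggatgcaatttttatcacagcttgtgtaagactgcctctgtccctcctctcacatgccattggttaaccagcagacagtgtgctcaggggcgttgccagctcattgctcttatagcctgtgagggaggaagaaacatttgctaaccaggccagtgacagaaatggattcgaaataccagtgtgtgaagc

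AKR1C1 had an RPKM of 2.79, 4.14 and 4.06 in negative and 0.262, 0.427 and 0.164 in positive SW1990 samples. All positive samples were far below the negative ones, at 4 to 10 reads each, and the level was 10.0-fold lower (log2 fold change -3.33, SE 0.34, adjusted p = 1.7e-05). The CFPAC-1 samples held 4.66, 2.59 and 2.84 when negative and 1.91, 1.93 and 3.93 when positive, with overlap between the groups. That log2 difference of -0.40 (SE 0.34) did not pass the test (adjusted p = 0.391). It ran from -0.73 to -0.14 with single libraries left out and was not called.

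AKR1C2 had the lowest mean RPKM of the 10 genes in every group. The length implied by the RPKM was 4155 bases for AKR1C2, against 1379 for AKR1C1 and 1596 for AKR1B10. By reads it was not the lowest in negative SW1990 samples, at 65 to 125 against 40 to 103 for AKR1B10. In positive SW1990 cells its RPKM overlapped that of AKR1B10. AKR1C2 had 0.761, 1.29 and 1.20 RPKM in negative and 0.0248, 0.0993 and 0.136 RPKM in positive SW1990 samples. The positive samples held 2 to 10 reads and did not overlap the negative ones, and the fitted level was 6.43-fold lower (log2 fold change -2.68, SE 0.35, adjusted p = 0.000127). In CFPAC-1 the values were 0.544, 0.418 and 0.543 in negative and 0.331, 0.487 and 0.941 in positive samples. The groups overlapped, and the log2 difference of 0.10 (SE 0.35, adjusted p = 0.861) changed sign when each sample was centred on its median.

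AKR1C3 was the most abundant of the 3, with values of 5.23, 9.89 and 7.60 RPKM in SW1990 negative samples and 0.573, 0.684 and 0.371 RPKM in SW1990 positive samples. No positive sample came near the negative ones, and the difference of 11.8-fold was the largest of the 10 genes in that line (log2 fold change -3.56, SE 0.30, adjusted p = 3.59e-06). CFPAC-1 samples held 7.83, 6.91 and 7.52 RPKM when negative and 4.98, 6.30 and 10.9 RPKM when positive. These groups overlapped and had almost the same mean, with a log2 difference of -0.08 (SE 0.30, adjusted p = 0.862). That difference ran from -0.40 to 0.16 with single libraries left out and was not called.

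Summed over AKR1C1, AKR1C2 and AKR1C3, the log2 fold change was -3.61 in SW1990 (SE 0.29, adjusted p = 2.93e-06) and -0.17 in CFPAC-1 (SE 0.29, adjusted p = 0.696). The sum of AKR1C1 and AKR1C2 alone gave -3.38 and -0.32. Both sums were called lower in SW1990 and not called in CFPAC-1, as each gene was. The change with GCTM-5 in SW1990 was lower than in CFPAC-1 for each gene, with an interaction of -2.93 for AKR1C1 (SE 0.48, adjusted p = 0.000977), -2.78 for AKR1C2 (SE 0.50, adjusted p = 0.0017) and -3.48 for AKR1C3 (SE 0.42, adjusted p = 0.000126).

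NQO1 encodes the quinone reductase that transfers electrons in pairs from NAD(P)H and so avoids semiquinone radicals, and lies at chr16:69740899-69760571 on the minus strand of GRCh37. It was the most abundant of the 10 genes per length in all 4 groups. SW1990 samples held 221, 300 and 275 RPKM when negative and 126, 168 and 136 RPKM when positive. The groups were apart, with a 1.85-fold lower level in positive cells (log2 fold change -0.89, SE 0.14, adjusted p = 0.000431). In CFPAC-1 the values were 131, 131 and 125 in negative and 135, 159 and 174 in positive samples. All positive samples lay above the negative ones, but the log2 difference of 0.27 (SE 0.14) did not pass the test (adjusted p = 0.149). The changes in the lines differed by -1.16 on the log2 scale (SE 0.19, adjusted p = 0.00114).

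TXNRD1 and SRXN1 serve the thioredoxin branch. TXNRD1 encodes cytosolic thioredoxin reductase, a selenoprotein that returns thioredoxin to its reduced form, and lies at chr12:104609557-104744085 on the plus strand of GRCh37. It had 105, 112 and 98.9 RPKM in negative and 78.8, 80.3 and 77.6 RPKM in positive SW1990 samples. The positive samples were tightly grouped below the negative ones, at a 1.33-fold lower level (log2 fold change -0.42, SE 0.10, adjusted p = 0.00997). CFPAC-1 samples held 46.4, 36.7 and 36.3 RPKM when negative and 80.2, 69.9 and 68.8 RPKM when positive. Here the positive samples were the higher ones, by 1.84-fold (log2 fold change 0.88, SE 0.10, adjusted p = 0.00011). Besides HMOX1, TXNRD1 was the member called in both lines in opposite directions, and its interaction was -1.29 (SE 0.15, adjusted p = 8.5e-05).

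SRXN1 encodes sulfiredoxin, which repairs overoxidised peroxiredoxins, and lies at chr20:627259-633844 on the minus strand of GRCh37. SW1990 samples held 77.7, 86.8 and 78.3 RPKM when negative and 83.8, 78.0 and 79.8 RPKM when positive. The groups overlapped, and the log2 difference was -0.01 (SE 0.08, adjusted p = 0.981). CFPAC-1 samples held 42.6, 40.8 and 38.5 RPKM when negative and 48.9, 48.3 and 54.0 RPKM when positive. The positive samples were all above the negative ones, by 1.24-fold (log2 fold change 0.31, SE 0.08, adjusted p = 0.00973). That call was lost when samples were centred on their medians (log2 fold change 0.21, adjusted p = 0.0933) or quantile normalised (0.18, adjusted p = 0.0617). The interaction of -0.31 (SE 0.11) did not pass the test (adjusted p = 0.055).

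GCLC and GCLM encode the catalytic and the modifier subunit of glutamate-cysteine ligase, the rate-limiting enzyme of glutathione synthesis. They lie in GRCh37 at chr6:53362139-53481768 and chr1:94350755-94375012, both on the minus strand. GCLC had 8.27, 8.01 and 9.46 RPKM in negative and 7.13, 8.93 and 8.65 RPKM in positive SW1990 samples, which overlapped (log2 fold change -0.06, SE 0.13, adjusted p = 0.779). In CFPAC-1 it had 11.9, 8.83 and 9.42 RPKM in negative and 13.9, 13.8 and 12.9 RPKM in positive samples. The positive samples were all higher, by 1.35-fold (log2 fold change 0.44, SE 0.13, adjusted p = 0.0211). This call was lost with median centring (0.34, adjusted p = 0.0518), with quantile normalisation (0.32, adjusted p = 0.0646), and without negative replicate 2 (0.35, adjusted p = 0.0905), negative replicate 3 (0.40, adjusted p = 0.0759) or positive replicate 1 (0.42, adjusted p = 0.0631). The interaction of GCLC, -0.50 (SE 0.18), did not pass the test (adjusted p = 0.0646). It passed without negative CFPAC-1 replicate 1 (-0.63, adjusted p = 0.0227) and, narrowly, with voom on recovered reads (-0.51, adjusted p = 0.04997).

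GCLM had 7.30, 8.11 and 7.32 RPKM in negative and 6.29, 5.33 and 5.95 RPKM in positive SW1990 samples. The groups did not overlap, but the log2 difference of -0.37 (SE 0.15) did not pass the test (adjusted p = 0.0838), except when the SW1990 samples alone were fitted (adjusted p = 0.0426). In CFPAC-1 it had 3.68, 2.68 and 3.08 RPKM in negative and 10.2, 8.53 and 7.44 RPKM in positive samples. Every positive sample lay above every negative one, and the 2.72-fold higher level was the largest change of the 10 genes in CFPAC-1 (log2 fold change 1.44, SE 0.15, adjusted p = 4.76e-05). The interaction was -1.81 (SE 0.21, adjusted p = 9.57e-05). The subunits thus differed in size of change within CFPAC-1, 1.44 for GCLM and 0.44 for GCLC on the log2 scale, a difference that was not tested.

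The promoter windows of GCLM and TXNRD1 are printed because only these, among the windows of the 10 genes, held the core of the antioxidant response element. Both genes were higher in positive CFPAC-1 cells, and TXNRD1 was lower in positive SW1990 cells. GCLC and SRXN1 were also higher in positive CFPAC-1 cells, and their windows held no match. The windows run from 250 bases before to 50 bases after the start, and bases beyond them were not searched. The motif searched was TGACNNNGC on both strands, whose first letters TGAC also begin the AP-1 motif TGACTCA. RefSeq gave a window for 8 of the 10 genes, all but AKR1B10 and HMOX1, and 10 windows in all, of which 3 held a match, beside 13.3% of 35116 windows of all genes. Capitals mark the matches, which read GCNNNGTCA where they lie on the minus strand of the window. Positions are counted from the start site as 1. The match in GCLM (GRCh38.p14, chr1:93909381-93909680, minus strand) ran from -34 to -26. The first TXNRD1 window (GRCh38.p14, chr12:104215529-104215828, plus strand) held matches from -99 to -91 and from -8 to 1, and the second (GRCh38.p14, chr12:104286782-104287081, plus strand) held one from -102 to -94. A match describes the letters only, and binding was not measured in these samples.
GCLM: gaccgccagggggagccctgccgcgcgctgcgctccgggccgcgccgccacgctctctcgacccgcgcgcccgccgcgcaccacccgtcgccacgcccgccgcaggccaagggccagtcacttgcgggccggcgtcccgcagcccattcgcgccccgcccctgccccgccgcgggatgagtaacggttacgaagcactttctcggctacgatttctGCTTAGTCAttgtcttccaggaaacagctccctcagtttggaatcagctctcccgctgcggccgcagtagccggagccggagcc
TXNRD1, first start: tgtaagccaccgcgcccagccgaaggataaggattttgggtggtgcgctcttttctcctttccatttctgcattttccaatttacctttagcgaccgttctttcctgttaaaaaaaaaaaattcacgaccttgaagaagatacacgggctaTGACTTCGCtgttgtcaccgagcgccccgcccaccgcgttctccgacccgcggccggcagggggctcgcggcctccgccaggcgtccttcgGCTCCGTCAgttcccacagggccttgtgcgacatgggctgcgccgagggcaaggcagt
TXNRD1, second start: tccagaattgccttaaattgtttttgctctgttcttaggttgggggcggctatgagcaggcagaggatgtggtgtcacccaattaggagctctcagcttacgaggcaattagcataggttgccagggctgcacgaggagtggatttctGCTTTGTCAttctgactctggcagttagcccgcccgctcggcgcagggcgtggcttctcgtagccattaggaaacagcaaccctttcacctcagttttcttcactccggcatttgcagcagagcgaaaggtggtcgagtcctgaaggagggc

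HMOX1 encodes heme oxygenase 1, which opens heme to biliverdin, iron and carbon monoxide and is repressed by BACH1, and lies at chr22:35776354-35790207 on the plus strand of GRCh37. SW1990 samples held 5.78, 7.84 and 7.29 RPKM when negative and 1.62, 2.19 and 1.70 RPKM when positive. The groups were well apart, at a 3.65-fold lower level in positive cells (log2 fold change -1.87, SE 0.25, adjusted p = 0.000143). In CFPAC-1 the values were 1.32, 0.978 and 0.915 RPKM in negative and 2.81, 2.41 and 1.39 RPKM in positive samples, where the lowest positive sample was just above the highest negative one. Positive cells held 1.91-fold more (log2 fold change 0.93, SE 0.25, adjusted p = 0.0125). That call was lost without negative replicate 3 (0.84, adjusted p = 0.0508), without positive replicate 1 (0.74, adjusted p = 0.0553), and when the CFPAC-1 samples alone were fitted (adjusted p = 0.0663). The interaction of -2.80 (SE 0.35, adjusted p = 0.00017) placed the SW1990 change below that of CFPAC-1.

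**Figure D2:**
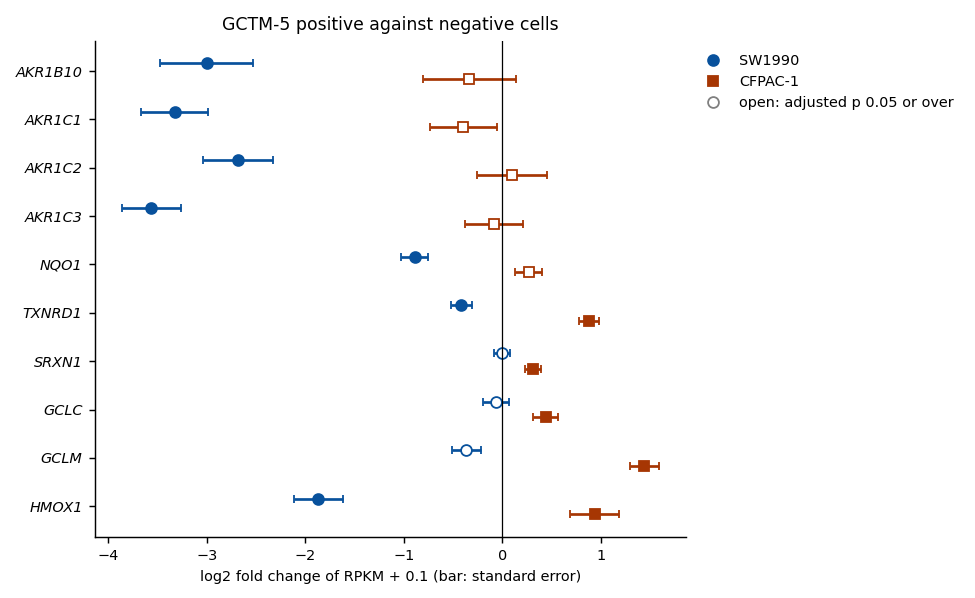
Log2 fold change of RPKM + 0.1 between GCTM-5 positive and negative cells for the 10 genes, with standard errors, in SW1990 (circles) and CFPAC-1 (squares), where open symbols have an adjusted p-value of 0.05 or over. The SW1990 values of the 4 aldo-keto reductases lie between -3.56 and -2.68, and those of GCLM are -0.37 in SW1990 and 1.44 in CFPAC-1.

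For 8 of the 10 genes the change with GCTM-5 in SW1990 was lower than that in CFPAC-1 by the interaction test, and for 0 it was higher, where 17.8% of all genes tested were lower and 9.16% higher. GCLC and SRXN1 were the exceptions. The median interaction of the 10 genes was -2.24, beside -0.15 over all genes tested, a shift of the whole transcriptome that median centring removed without changing the count of 8. Leaving out any one library gave 8 or 9 genes, and voom on recovered reads gave 9. With a pseudocount of 1 the interaction of AKR1B10 was not called (-1.12, adjusted p = 0.119).

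Genes used as markers of epithelial and other cell types also differed between the SW1990 fractions. All samples were fractions of carcinoma lines, so the marker names below refer to genes and not to cells of those types. The summed RPKM of 5 epithelial markers was 1357 to 1628 in SW1990 negative samples, 4014 to 4562 in SW1990 positive samples, and 5222 to 6002 and 6400 to 7691 in negative and positive CFPAC-1 samples, with all 5 above 1 RPKM in every group. The summed RPKM of 6 fibroblast markers ranged from 12.7 to 22.6 in SW1990 negative samples and from 3.90 to 4.86 in SW1990 positive samples, against 1.26 to 2.39 in CFPAC-1. Of these 6, COL1A2, COL3A1 and DCN were at 0 in every positive SW1990 sample, and COL3A1 and DCN were at 0 in every CFPAC-1 sample. The summed RPKM of 3 endothelial markers ranged from 14.8 to 18.8 in SW1990 negative samples and from 1.47 to 2.05 in SW1990 positive samples, nearly all of it CDH5, and at most 0.485 in CFPAC-1. Of 5 immune markers, CD3E was at 0 in all SW1990 samples and the summed RPKM, 34.6 to 48.5 in SW1990 negative, 15.4 to 33.0 in SW1990 positive and 112 to 167 in CFPAC-1 samples, came mainly from CD68 and CD14. Of 3 acinar markers, CPA1 and AMY2A were at 0 in all 12 samples. The part of these markers in the results was not tested. In sorted bulk samples, fewer cells that express a gene and less RNA per cell cannot be told apart.

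The lines differed in most genes tested, with 11181 of 16236 called between negative and 10113 between positive fractions. The share of the 10 genes called in either direction was near that background in both fractions, while the direction of the calls differed between fractions. Among negative cells, 6 of the 10 were higher in SW1990 and 1 was lower, where 40.7% of all genes tested were higher and 28.2% lower. HMOX1 was 6.05-fold higher (log2 difference 2.60, SE 0.25, adjusted p = 1.79e-06), TXNRD1 2.66-fold (1.41, SE 0.10), GCLM 2.38-fold (1.25, SE 0.15), NQO1 2.04-fold (1.03, SE 0.14) and SRXN1 1.99-fold (0.99, SE 0.08). AKR1B10 was 9.69-fold lower in negative SW1990 than in negative CFPAC-1 cells (log2 difference -3.28, SE 0.47, adjusted p = 5.65e-05). AKR1C1, AKR1C3 and GCLC did not pass the test, with log2 differences of 0.15, -0.02 and -0.22. GCLC was called lower (-0.41, adjusted p = 0.0117) once samples were centred on their medians, since the median difference of all genes was 0.19. AKR1C2 was called at 0.95 (SE 0.35, adjusted p = 0.0298), but not as part of the sum with AKR1C1 (0.31, adjusted p = 0.415), with median centring (0.76, adjusted p = 0.0744), or without negative SW1990 replicate 2 (0.82, adjusted p = 0.0961) or 3 (0.87, adjusted p = 0.0833), or negative CFPAC-1 replicate 1 (1.00, adjusted p = 0.0512), 2 (0.85, adjusted p = 0.0906) or 3 (1.00, adjusted p = 0.0526).

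Among positive cells, 1 of the 10 was higher in SW1990 and 6 were lower, where 32.9% of all genes tested were higher and 29.3% lower. AKR1B10 was 61.4-fold lower in SW1990 (log2 difference -5.94, SE 0.47, adjusted p = 5.43e-07), AKR1C3 11.3-fold (-3.50, SE 0.30), AKR1C1 6.89-fold (-2.79, SE 0.34) and AKR1C2 3.56-fold (-1.83, SE 0.35). The AKR1B10 difference rested on 3 to 11 reads in positive SW1990 samples. It ran from -6.54 to -3.95 over the alternatives, each of which kept the call. GCLC and GCLM were also lower, by 0.72 (SE 0.13) and 0.56 (SE 0.15) on the log2 scale, whereas SRXN1 was 1.60-fold higher (0.68, SE 0.08, adjusted p = 1.3e-05). NQO1, TXNRD1 and HMOX1, each higher in SW1990 among negative cells, had log2 differences of -0.13, 0.12 and -0.21 among positive cells that did not pass the test. By the 2-fold rule, 5 of the 10 differed between negative fractions (36.9% of all genes tested) and 4 between positive fractions (28.5%), the 4 being the aldo-keto reductases. The plot of line differences shows both fractions together.

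**Figure D3:**
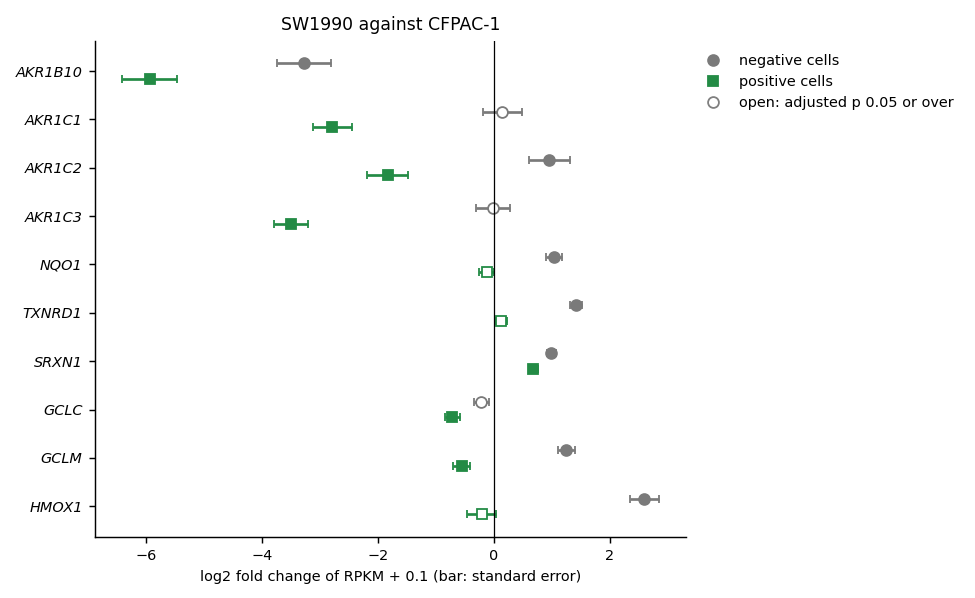
Log2 difference of RPKM + 0.1 between SW1990 and CFPAC-1 for the 10 genes, with standard errors, in negative cells (circles) and positive cells (squares), where values above 0 are higher in SW1990 and open symbols have an adjusted p-value of 0.05 or over. HMOX1 lies at 2.60 in negative and -0.21 in positive cells, and AKR1B10 at -3.28 and -5.94.

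By RPKM, which is a level per length, NQO1 came first in every group and TXNRD1 and SRXN1 next, and AKR1C2 came last. In positive SW1990 cells the means of SRXN1 (80.5 ± 2.94, SD, n = 3) and TXNRD1 (78.9 ± 1.36) were followed by GCLC at 8.24 ± 0.971, and TXNRD1 and SRXN1 overlapped. The order below them depended on the line. In negative CFPAC-1 cells AKR1B10 stood next after these, at 22.6 ± 4.58, with all samples above those of GCLC at 10.0 ± 1.63. In negative SW1990 cells AKR1B10 was the lowest but for AKR1C2, at 2.38 ± 1.02, and overlapped both its neighbours in the order, AKR1C1 at 3.66 ± 0.760 and AKR1C2 at 1.08 ± 0.283. GCLC, AKR1C3, GCLM and HMOX1 followed SRXN1 in that group in this order, and each overlapped the next.

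Over the 12 samples, the genes whose centred log2 values came nearest to those of AKR1B10 were THBS2, a matricellular thrombospondin, and IGFBP5, a binding protein of insulin-like growth factors, at root mean square differences of 0.47 and 0.49 among 13258 genes with a mean of at least 1 RPKM. For THBS2 the mean was 1.05 RPKM in negative SW1990 cells, 0.0803 RPKM in positive ones, and 9.96 and 9.72 RPKM in CFPAC-1. The nearest genes to NQO1 were GPX8, a peroxidase of the endoplasmic reticulum, and XXYLT1, a xylosyltransferase, both at 0.15. Those nearest to HMOX1 were PLOD2, a collagen lysyl hydroxylase, at 0.29 and SYT15, a synaptotagmin, at 0.30. For PLOD2 the mean was 26.5 RPKM in negative SW1990 cells, 9.19 RPKM in positive ones, and 5.02 and 6.84 RPKM in CFPAC-1. The points share their 4 groups and libraries, so likeness here is a description.

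Of 11 genes of the NRF2 pathway itself, 1 was higher and 5 lower in positive SW1990 cells. The shares of all genes tested were 11.3% higher and 16.9% lower there. The 5 lower genes were NFE2L2, the related factors NFE2L1 and NFE2L3, BACH1 and SQSTM1. With median centring all but SQSTM1 lost the call, NFE2L1 at an adjusted p-value of 0.0845 and NFE2L3 at 0.0899. Positive CFPAC-1 cells had 2 of the 11 higher and 2 lower, near the shares of all genes tested, 22.3% and 14.2%. NFE2L2 had 78.1, 81.2 and 81.4 RPKM in negative and 59.3, 70.9 and 66.5 RPKM in positive SW1990 samples. Its positive samples were the lower ones, at a log2 fold change of -0.29 (SE 0.09, adjusted p = 0.0231), a call that was lost with median centring (adjusted p = 0.0755) and without negative replicate 2 (-0.29, adjusted p = 0.0611) or 3 (-0.28, adjusted p = 0.0671) or positive replicate 1 (-0.22, adjusted p = 0.0917) or 3 (-0.31, adjusted p = 0.0541). In CFPAC-1 NFE2L2 had 65.0, 65.2 and 66.8 RPKM in negative and 45.9, 49.8 and 54.6 RPKM in positive samples. The RNA of the factor was thus lower in positive cells there too (log2 fold change -0.39, SE 0.09, adjusted p = 0.00438). In that line 5 of the 10 enzymes were higher, and the part of NFE2L2 RNA in this was not tested. The interaction of NFE2L2, 0.10, did not pass the test (adjusted p = 0.592). KEAP1 did not pass it in either line, at -0.13 (SE 0.11) in SW1990 and 0.03 (SE 0.11) in CFPAC-1, the latter turning to -0.07 with median centring. It was higher in SW1990 than in CFPAC-1 in both fractions, by 1.17 in negative and 1.00 in positive cells on the log2 scale.

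SQSTM1, whose product p62 binds KEAP1 and which is itself induced by NRF2, had 237, 272 and 303 RPKM in negative and 110, 136 and 117 RPKM in positive SW1990 samples (log2 fold change -1.16, SE 0.13, adjusted p = 4.96e-05). In CFPAC-1 it had 139, 113 and 116 RPKM in negative and 111, 120 and 147 RPKM in positive samples, which overlapped (0.03, adjusted p = 0.879), and the interaction was -1.19 (adjusted p = 0.00083). BACH1, the repressor, was lower in positive CFPAC-1 cells, at 32.5, 44.8 and 36.4 RPKM against 74.4, 82.7 and 86.7 RPKM in negative cells (log2 fold change -1.11, SE 0.14, adjusted p = 0.000161). In SW1990 the BACH1 log2 fold change was -0.47 (adjusted p = 0.0256), and the call was lost with median centring (adjusted p = 0.0576) and without negative replicate 2 (-0.47, adjusted p = 0.0601) or 3 (-0.39, adjusted p = 0.102) or positive replicate 1 (-0.34, adjusted p = 0.104). MAFF, a small MAF partner, was 0.80 higher on the log2 scale in positive SW1990 cells (adjusted p = 0.00132) and NFE2L1, a related factor, 0.41 higher in positive CFPAC-1 cells (adjusted p = 0.0024). The interactions of MAFF and NFE2L1 were 1.07 and -0.67.

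Beyond the 10 enzymes, 99 genes in 9 lists of related function were followed, of which 92 were tested. In SW1990, 8 of them were higher and 26 lower in positive cells, where 11.3% of all genes tested were higher and 16.9% lower. The CFPAC-1 counts were 35 higher and 17 lower, where 22.3% of all genes tested were higher and 14.2% lower. The median log2 fold change of the 92 genes was -0.26 in SW1990 and 0.24 in CFPAC-1, beside -0.04 and 0.05 over all genes tested. By the interaction test, 6 were higher and 36 lower, where 9.16% of all genes tested were higher and 17.8% lower. Counts of the single lists below are to be read against the shares of all genes tested in the same line. The plot of related lists gives each gene.

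**Figure D4:**
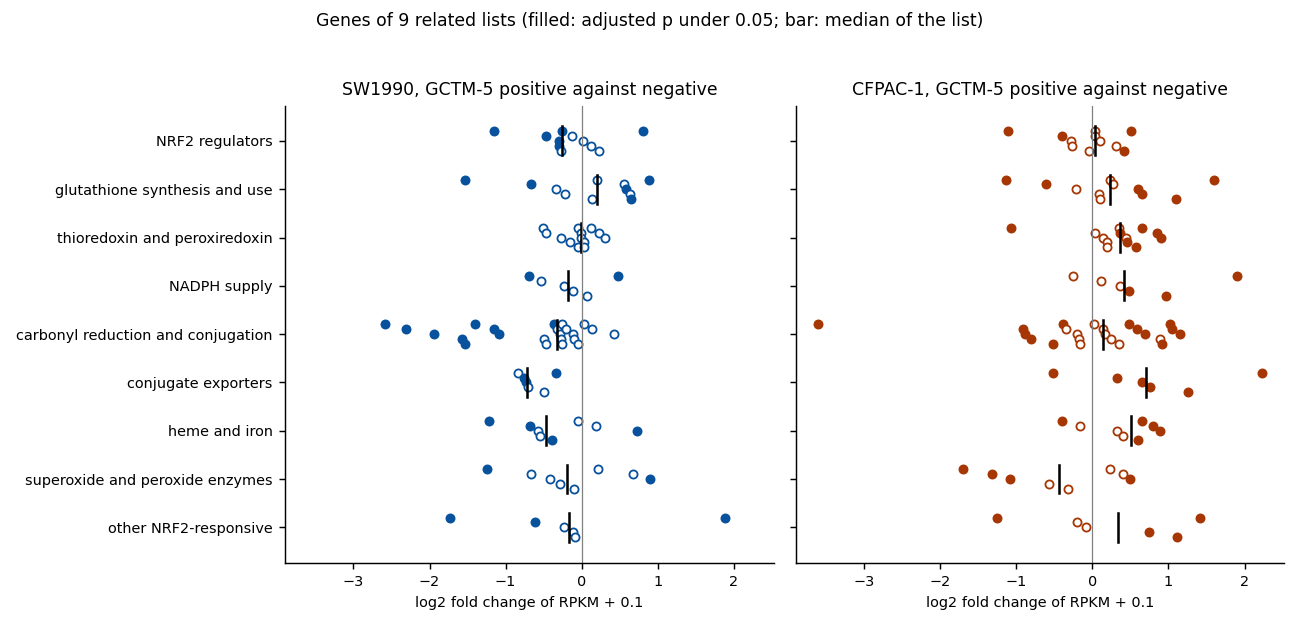
Log2 fold change of RPKM + 0.1 between GCTM-5 positive and negative cells for 92 genes in 9 lists of related function, in SW1990 (left) and CFPAC-1 (right), where filled points have an adjusted p-value under 0.05 and the black bar is the median of the list. The conjugate exporters lie below 0 in SW1990, with a median of -0.72, and mostly above it in CFPAC-1, with a median of 0.71.

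In glutathione synthesis and use, 3 of 11 genes were higher and 2 lower in positive SW1990 cells, and 4 were higher and 2 lower in positive CFPAC-1 cells. SLC7A11, the cystine importer that feeds glutathione synthesis and another known NRF2 target, was lower in positive cells of both lines. It had 9.62, 10.7 and 10.9 RPKM in negative and 2.30, 4.26 and 4.43 RPKM in positive SW1990 samples (log2 fold change -1.54, SE 0.24, adjusted p = 0.000422), and 54.0, 58.0 and 68.5 against 21.3, 26.1 and 36.5 RPKM in CFPAC-1 (-1.13, SE 0.24, adjusted p = 0.00344). GSR, glutathione reductase, was higher in positive cells of both lines, by 0.89 and 0.60. GPX2, an epithelial glutathione peroxidase, was 1.60 higher in positive CFPAC-1 cells (adjusted p = 0.00634) and near 1 RPKM or below in SW1990. GPX8 was lower in positive SW1990 cells (-0.66) and GLRX, glutaredoxin, in positive CFPAC-1 cells (-0.60).

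In the thioredoxin and peroxiredoxin list, 0 of 13 genes passed the test in SW1990, and 6 were higher and 1 lower in positive CFPAC-1 cells. TXN, thioredoxin, had 29.4, 26.0 and 25.8 RPKM in negative and 50.6, 53.3 and 42.9 RPKM in positive CFPAC-1 samples (log2 fold change 0.85, SE 0.11, adjusted p = 0.000161). PRDX1, a peroxiredoxin, had 64.6, 52.4 and 54.8 against 108, 101 and 110 RPKM (0.90, SE 0.10, adjusted p = 8.79e-05). TXNIP, the thioredoxin inhibitor, was the one that was lower, at -1.07 (SE 0.25, adjusted p = 0.00625). TXN and PRDX1 each had an interaction that passed the test, -0.82 and -0.95.

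Among the genes of NADPH supply, ME1, malic enzyme, was 1.90 higher in positive CFPAC-1 cells (adjusted p = 0.000121). In SW1990 its log2 difference of -0.54 did not pass the test (adjusted p = 0.101). IDH1, isocitrate dehydrogenase, was higher in positive SW1990 cells (0.47, adjusted p = 0.00482).

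Of 23 tested genes of carbonyl reduction and conjugation, 0 were higher and 9 lower in positive SW1990 cells, and 7 were higher and 6 lower in positive CFPAC-1 cells. CBR3, carbonyl reductase 3, had 11.3, 12.7 and 11.8 RPKM in negative and 3.99, 4.93 and 4.47 RPKM in positive SW1990 samples, and 3.51, 5.39 and 3.38 against 8.01, 7.86 and 9.38 RPKM in CFPAC-1. It was called in both lines in opposite directions (-1.40 and 1.05, interaction -2.45, adjusted p = 2.85e-05), as was AKR1B1, aldose reductase (-0.36 and 0.70, interaction -1.06). ALDH1A1, retinaldehyde dehydrogenase, was near or at 0 in SW1990 and 1.15 higher in positive CFPAC-1 cells, at 30.3, 29.0 and 30.7 against 80.5, 81.1 and 45.2 RPKM (adjusted p = 0.00432), a call that was lost with a pseudocount of 0.01 (adjusted p = 0.176). UGT1A6, a glucuronosyltransferase that shares exons with other UGT1A genes and is uncertain for that reason, was lower in positive CFPAC-1 cells (-3.60, SE 0.64, adjusted p = 0.00129). The size of that difference was unsettled, at -4.48 without positive CFPAC-1 replicate 3, -1.54 with a pseudocount of 1 and -5.63 with voom on recovered reads, each of which kept the call.

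Of 6 conjugate exporters, 0 were higher and 3 lower in positive SW1990 cells, and 5 were higher and 1 lower in positive CFPAC-1 cells. In each line, some of these calls were lost when single libraries were left out. ABCG2, a multidrug exporter, had 0.220, 0.165 and 0.136 RPKM in negative and 1.56, 0.878 and 1.18 RPKM in positive CFPAC-1 samples (2.23, SE 0.26, adjusted p = 0.000111). In SW1990 it had 1.74, 2.30 and 2.50 against 0.931, 1.41 and 1.59 RPKM, and the log2 difference of -0.71 did not pass the test (adjusted p = 0.0653). ABCC1 was called in both lines in opposite directions, at -0.33 and 0.32 (interaction -0.66, adjusted p = 0.00634).

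Of 8 genes of heme and iron, 1 was higher and 3 lower in positive SW1990 cells, and 4 were higher and 1 lower in positive CFPAC-1 cells. FTL, the ferritin light chain and a known NRF2 target, had a mean of 4202 ± 801 RPKM in negative and 1787 ± 252 RPKM in positive SW1990 cells (SD, n = 3; log2 fold change -1.22, SE 0.20, adjusted p = 0.000691), and was 0.60 higher in positive CFPAC-1 cells (adjusted p = 0.0352). HMOX2, the constitutive heme oxygenase, was higher in positive cells of both lines, by 0.72 in SW1990 (adjusted p = 0.000802) and 0.80 in CFPAC-1 (adjusted p = 0.000495), unlike HMOX1 in SW1990.

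Among 8 tested superoxide and peroxide enzymes, 1 was higher and 1 lower in positive SW1990 cells, the latter being SOD2, the mitochondrial superoxide dismutase (-1.25, SE 0.22, adjusted p = 0.000966). In CFPAC-1, 1 was higher and 3 lower, and the higher one was SOD1, the cytosolic form (0.49, adjusted p = 0.0098). Among 6 other NRF2-responsive genes, PIR, an iron-binding nuclear protein, had 8.17, 17.2 and 14.1 RPKM in negative and 2.48, 6.16 and 3.29 RPKM in positive SW1990 samples, and 2.86, 2.20 and 1.45 against 6.37, 4.81 and 6.17 RPKM in CFPAC-1. It was called in both lines in opposite directions (-1.74 and 1.41, interaction -3.15, adjusted p = 0.00072). TRIM16, a ubiquitin ligase whose reads may be shared with its copy TRIM16L, was higher in positive cells of both lines, by 1.88 and 0.74, with an interaction of 1.14 (adjusted p = 0.000105).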

How the data were processed

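RNA from 12 sorted samples was sequenced as polyadenylated libraries. With QuasR, the authors aligned reads to hg19 (GRCh37), and the deposited RPKM are read counts divided by library size and gene length. The version of QuasR, the annotation, the use of strand and how reads with several matching genes were counted are not given in the sources used here, and the submitters' processing notes name bcl2fastq. The study called genes with TCC, which needs counts. Library totals and whole reads were recovered from the RPKM of single-exon genes (tolerance 0.01 of a read) and were used for read numbers and for 1 alternative only. They cover counting error alone.

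Genes with a mean of at least 0.1 RPKM (16236) were fitted with limma 3.58.1 in R 4.3.3 on log2(RPKM + 0.1) as 4 group means with an intensity trend, and 2-sided p-values were adjusted by Benjamini-Hochberg in each of 5 comparisons. Alternatives were other pseudocounts, filters, scalings and fits, voom on recovered reads, summed AKR1C genes, and each library left out. Scripts were tested on simulated data. Sequences came from RefSeq (GRCh38.p14) and locations and coding sequences from GENCODE on GRCh37. Protein sequences were not used here. The genes, lists and tests were chosen with earlier results of these data known. Named genes were the 10 enzymes, regulators of NRF2, from each other list up to 2 called genes at each end with a mean of at least 1 RPKM, and the 2 nearest genes to AKR1B10, NQO1 and HMOX1; those whose calls did not hold when single libraries were left out were mostly counted and not named. The values of 1 gene of the related lists are not reported here.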

Additional observations from a re-analysis of the deposited data

Results flagged for a closer look

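For 8 of the 10 genes the change between GCTM-5 positive and negative cells differed between the lines by the limma interaction test. The difference, SW1990 change minus CFPAC-1 change on the log2 scale, was -2.66 for AKR1B10, -2.93 for AKR1C1, -2.78 for AKR1C2, -3.48 for AKR1C3, -1.16 for NQO1, -1.81 for GCLM, -1.29 for TXNRD1 and -2.80 for HMOX1. For AKR1B10 and the AKR1C genes it came with a lower level in positive SW1990 cells and no call in CFPAC-1, for GCLM with a higher level in positive CFPAC-1 cells and no call in SW1990, and for TXNRD1 and HMOX1 with calls in opposite directions. The gap test for single outlying samples was not applied to groups of 3 samples.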

How the results depend on the processing

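Of the 50 results on the 10 genes, 36 kept their direction and their side of the threshold under every alternative that was run. In CFPAC-1, the count of 5 higher genes became 3 with median centring and with quantile normalisation, 3 to 5 when single libraries were left out, and 1 by the 2-fold rule. Among negative cells of the lines, the count of 1 lower gene became 2 with median centring and with quantile normalisation, and among positive cells the count of 1 higher gene became 0 by the 2-fold rule. That rule called 1961 genes in SW1990, 1588 in CFPAC-1, 5993 between negative and 4627 between positive fractions, in place of 4581, 5929, 11181 and 10113.

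Signs turned only for differences that were not called. AKR1C2 in CFPAC-1 was -0.000983 with median centring, -0.0599 with voom, -0.25 to 0.39 with single libraries left out, and -0.32 and -0.17 in the sums of 2 and 3 AKR1C genes, and AKR1C3 there was -0.40 to 0.16 with libraries left out. KEAP1 in CFPAC-1 was -0.0653 with median centring, -0.0569 with quantile normalisation and -0.0868 to 0.139 with libraries left out. In SW1990, SRXN1 was 0.0432 with median centring and -0.0342 to 0.0456 with libraries left out, and GCLC was -0.123 to 0.0377. Between negative fractions, AKR1C1 was -0.0413 with median centring, -0.0336 with quantile normalisation and -0.0117 to 0.400 with libraries left out, and AKR1C3 was -0.23 to 0.22 and, in the sum of 3, 0.10. The causes were not tested.

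Whether positive and negative samples with the same replicate number came from the same sort is not stated. Their deviations from the group means correlated at 0.18, 0.02 and 0.12 in SW1990 and -0.02, 0.00 and -0.06 in CFPAC-1. Between different numbers, the SW1990 fractions correlated at -0.25 to 0.16, while the CFPAC-1 fractions gave -0.03 to 0.04. Same-number correlations across the lines lay between -0.05 and 0.21. These ranges overlap, so the correlations do not decide whether the samples were paired. A replicate block left the counts of the 10 genes at 7 lower in SW1990, 5 higher in CFPAC-1 and 8 in the interaction, changed no call of the 10, and moved the genes called from 4581 to 4386 and from 5929 to 5729. The 3 to 11 reads of AKR1B10 in positive SW1990 samples limit the size of its fold change more than its direction.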
